A study of Mus musculus with 26 samples.

Results

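Polycomb complex genes encode the subunits of the 2 Polycomb repressive complexes, PRC1 and PRC2, and 9 of them are described here by their place among chromatin domains of mouse embryonic stem cells (ESCs): Ezh2, Eed, Suz12, Jarid2, Rnf2, Cbx2, Cbx8, Phc1 and Kdm2b. The genes were chosen by name, and all 9 were found among the 21521 protein-coding genes that RefSeq places on the chromosomes of GRCm38.p6 (mm10). Each gene was set against the deposited list of domain boundaries. Polycomb proteins keep developmental genes silent in stem cells. PRC2 places the methyl mark H3K27me3 on histone H3, and PRC1 attaches ubiquitin to histone H2A. In pluripotent cells both complexes gather at CpG islands, stretches of DNA rich in CpG, the dinucleotide in which C is followed by G.

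The study made Micro-C libraries, an assay that digests crosslinked chromatin with micrococcal nuclease, ligates the ends and reads out by sequencing which nucleosomes lay close together. Its 26 libraries fall into 5 groups of ESCs and epiblast-like cells with or without the degrader dTAG or, in ESCs, the p300/CBP inhibitor A485. The boundary list belongs to 1 group, the ESCs given only the solvent DMSO at 0.05% by volume, and pools its 6 libraries. These cells are from the RAD21-dTAG line, which derives from Bruce-4 ESCs. The labels give the genotype as C57BL/6J, the medium as serum with 2i and LIF, and, in the sample titles, the G1 phase of the cell cycle. All groups carry the degron tag on RAD21, a subunit of cohesin, so the DMSO cells are tagged cells without degrader and not an untagged parent line. Whether the line is a single clone is not given in the sources used here. The list holds positions and no expression values, so the labelled cell type could not be set against marker genes. The other groups were not analysed here, so no value below compares treatments.

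The list holds 3515 boundary intervals, each 25 kb wide, with no score and no value per library. Contact depth is unknown, and no boundary has an error of its own. Replicates of a gene's position do not exist either, so values are given without a test, each beside the same value over all protein-coding genes. A domain is the stretch between neighbouring intervals of a chromosome. There were 3495 of them, with a median length of 500 kb and quartiles of 325 and 825 kb. A gene is called near a boundary below if either of its ends was in an interval or at most 10 kb from its edge.

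The results turn on 2 genes that hold a whole boundary interval between their ends, Suz12 and Kdm2b, so the promoter sequence of each is shown first. The windows run from 250 bases before to 50 bases after a listed transcription start, are from RefSeq GRCm38.p6, and read 5′ to 3′ on the strand of the gene. Capitals mark every CpG. Both genes are shown with the start that lies nearest their outer end, and Kdm2b also with an internal start that lies 0.367 kb outside its boundary interval. The Suz12 window holds 41 CpG, the outer Kdm2b window 28 and the internal one 47.
Suz12 start, chr11:79992856-79993155, plus strand: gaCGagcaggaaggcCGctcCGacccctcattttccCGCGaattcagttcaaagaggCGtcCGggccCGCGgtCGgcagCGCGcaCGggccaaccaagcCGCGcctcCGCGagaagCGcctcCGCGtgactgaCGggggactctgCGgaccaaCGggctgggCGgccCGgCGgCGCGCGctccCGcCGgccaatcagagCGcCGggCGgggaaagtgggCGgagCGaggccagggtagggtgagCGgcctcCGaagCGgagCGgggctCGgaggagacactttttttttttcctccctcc
Kdm2b outer start, chr5:122989050-122989349, minus strand: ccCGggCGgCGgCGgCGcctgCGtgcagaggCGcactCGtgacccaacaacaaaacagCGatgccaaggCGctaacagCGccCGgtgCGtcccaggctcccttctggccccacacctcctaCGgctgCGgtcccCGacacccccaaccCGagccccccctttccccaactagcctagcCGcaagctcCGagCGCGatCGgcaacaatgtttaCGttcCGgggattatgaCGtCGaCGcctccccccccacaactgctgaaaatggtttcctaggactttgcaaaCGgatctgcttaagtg
Kdm2b internal start, chr5:122900318-122900617, minus strand: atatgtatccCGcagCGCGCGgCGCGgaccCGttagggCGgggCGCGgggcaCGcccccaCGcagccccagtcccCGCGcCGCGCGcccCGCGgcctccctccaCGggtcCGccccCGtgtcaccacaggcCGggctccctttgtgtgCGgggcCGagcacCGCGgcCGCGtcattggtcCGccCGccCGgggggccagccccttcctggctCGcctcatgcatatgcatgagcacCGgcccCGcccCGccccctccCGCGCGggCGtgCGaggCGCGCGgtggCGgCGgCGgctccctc

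Suz12 (RefSeq gene 52615, chr11:79993106-80034123, plus strand, 41.0 kb long) encodes the subunit that holds PRC2 together. Its boundary, chr11:80000001-80025000, lay wholly inside the gene. The first 6.90 kb, with the start of transcription, were on the side of lower coordinates, and the last 9.12 kb were on the other side. The midpoint of Suz12 fell in the interval itself, so the gene belongs to no single domain. No other protein-coding gene had an end within 10 kb of this interval. The start of Suz12 faced a domain of 575 kb (chr11:79425001-80000000) with 7 protein-coding genes by midpoint: Nf1, which encodes the RAS regulator neurofibromin, Omg, Evi2, Evi2b, Evi2a, Rab11fip4 and Utp6. Its 3′ end faced a domain of 400 kb (chr11:80025001-80425000) with 9: Crlf3, Atad5, Tefm, Adap2, Rnf135, Rhot1, Rhbdl3, 5730455P16Rik and Zfp207. Gene density was 1.22 protein-coding genes per 100 kb on the start side and 2.25 on the other. The nearest neighbours were Crlf3, tail to tail at 12.4 kb, and Utp6 at 30.7 kb.

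Kdm2b (RefSeq gene 30841, chr5:122870664-122989270, minus strand, 118.6 kb long) encodes a protein whose CxxC zinc finger binds unmethylated CpG and which brings a variant PRC1 to CpG islands. Its boundary, chr5:122875001-122900000, also lay wholly inside the gene, near the 3′ end. On the side of lower coordinates lay 4.34 kb of the gene, and on the other side 89.3 kb with all of its listed starts. RefSeq windows gave 4 starts for Kdm2b. The outer pair, at positions 122989099 and 122988507, were 89.1 and 88.5 kb from the interval. The internal pair, at 122900367 and 122900350, were 0.367 and 0.35 kb from it, just outside its edge. As background, Kdm2b is known to have a short form, started inside the gene, that keeps the CxxC finger and lacks the histone demethylase domain. Among all listed start sites of protein-coding genes, 7.38% lay inside an interval or within 1 kb of it, and 0.599% were outside but within 1 kb. The interval is 25 kb wide, so a gap of 0.35 kb is far below the resolution at which the boundary is placed.

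**Figure D1:**
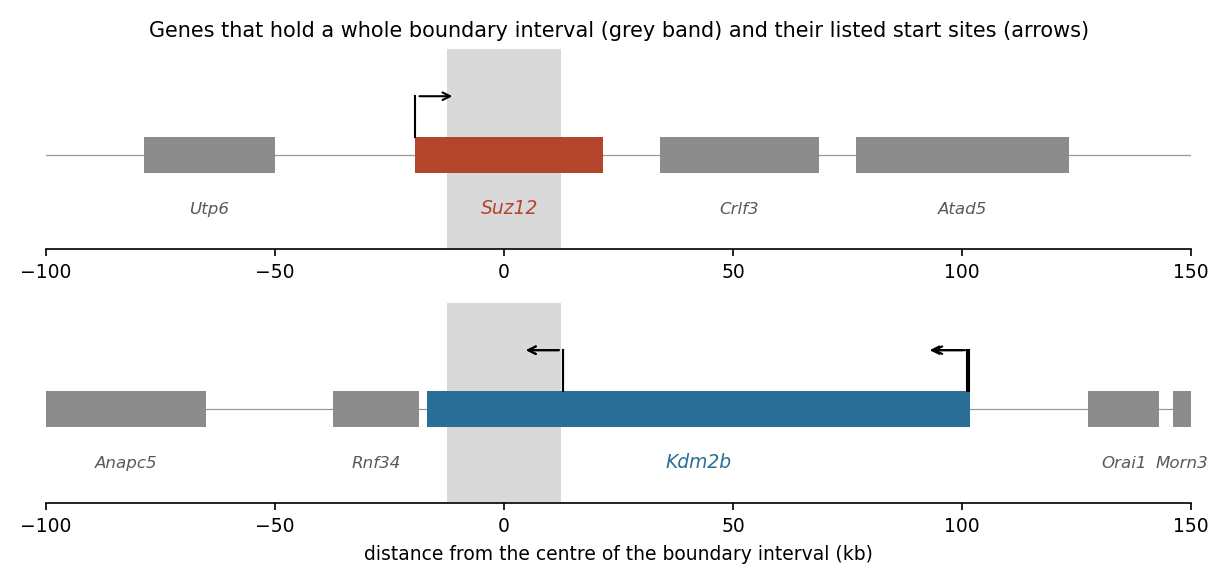
Suz12 (top) and Kdm2b (bottom) with their protein-coding neighbours, drawn to scale as distance in kb from the centre of the boundary interval, with the interval as a grey band and listed start sites as arrows in the direction of transcription. The Suz12 start lies 6.90 kb outside the band, and the internal Kdm2b starts lie at its edge, 0.35 and 0.367 kb away.

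By its midpoint Kdm2b belonged to a domain of 325 kb (chr5:122900001-123225000) with 7 protein-coding genes, or 2.15 per 100 kb. Beside Kdm2b these were Orai1, Morn3, Tmem120b, Rhof, Setd1b and Hpd. Orai1 encodes a calcium channel and lies head to head with Kdm2b at 25.8 kb, and Setd1b encodes a methyltransferase that acts on H3K4, a site linked to active genes. Kdm2b and Setd1b were 152.8 kb apart with 0 boundaries between them. The 3′ end of Kdm2b reached into a domain of 475 kb (chr5:122400001-122875000) with 8 protein-coding genes, or 1.68 per 100 kb: Anapc7, Atp2a2, Ift81, P2rx7, P2rx4, Camkk2, Anapc5 and Rnf34. Rnf34, the nearest of these, lies tail to tail with Kdm2b at 1.72 kb and 6.06 kb from the interval. Of the outer edges of these domains, those with higher coordinates held the start of Psmd11 beyond Suz12, at chr11:80425001-80450000, and of Psmd9 beyond Kdm2b, at chr5:123225001-123250000. Of those with lower coordinates, the edge before Suz12 held no protein-coding gene end and the edge before Kdm2b held ends of Gpn3 and Arpc3.

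A whole interval inside the gene was found for 2 of the 9 Polycomb genes. Among all protein-coding genes the share was 3.49% (752 of 21521). A gene shorter than an interval cannot hold one, and of the 6 Polycomb genes of at least 25 kb the count was again 2, beside 8.74% of the 8600 protein-coding genes of that length. Among genes of 0.8 to 1.25 times the length of Suz12, 5.13% held a whole interval (112 of 2185), and among genes that close to the length of Kdm2b, 7.97% did (88 of 1104). Jarid2, at 190.9 kb the longest of the 9, held none, though 15.3% of the 659 genes of like length did. These counts are too small to call holding a boundary a trait of the Polycomb genes, and no test was made.

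The nearest distance from a gene end to an interval put the 9 genes in the order Kdm2b (4.34 kb), Suz12 (6.90 kb), Phc1 (17.7 kb), Cbx2 (23.0 kb), Cbx8 (36.3 kb), Eed (54.7 kb), Jarid2 (78.4 kb), Rnf2 (94.4 kb) and Ezh2 (529.7 kb). Neighbours in this order, up to Rnf2, differ by less than the width of 1 interval. They cannot be told apart at this resolution, except Cbx2 and Cbx8, which were measured to the same interval. Ezh2 stands apart from the rest. The median was 36.3 kb, and 8 of the 9 were nearer than the median protein-coding gene, at 98.9 kb (quartiles 22.8 and 228.6 kb). By the window of 10 kb, 2 of the 9, Kdm2b and Suz12, were near a boundary, or 22.2% with an exact 95% interval of 2.81% to 60.0% that covers counting error only. The share of all protein-coding genes was 18.3%. The count for the Polycomb genes is close to this background.

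**Figure D2:**
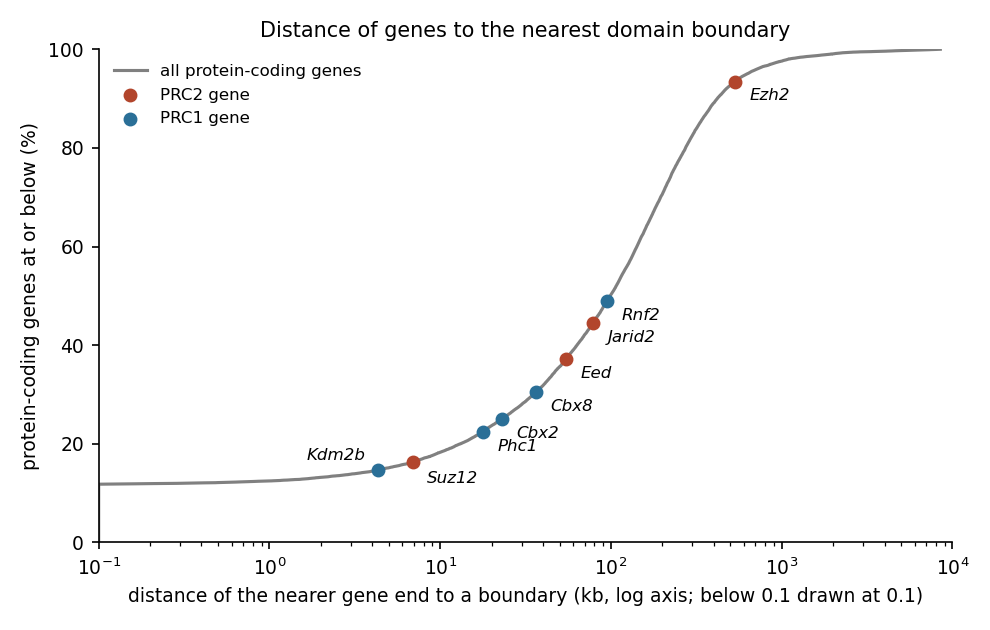
Distance from the nearer gene end to a boundary interval in kb, on a log axis, against the percentage of all 21521 protein-coding genes at or below it (line), with the 9 Polycomb genes as points. The points run from Kdm2b at 4.34 kb to Ezh2 at 529.7 kb, where 93.4% of protein-coding genes are nearer.

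Among the PRC2 genes, Ezh2 lay farthest from a boundary, while Eed and Jarid2, like Suz12, were nearer than the median protein-coding gene. Ezh2 (RefSeq gene 14056, chr6:47530274-47595270, minus strand, 65.0 kb long) encodes the methyltransferase of the complex. Its nearest interval was 529.7 kb beyond its 5′ end, and the other was 2480.3 kb beyond its 3′ end. The domain, chr6:45050001-48125000, was 3075 kb long, longer than 98.5% of all domains, and 49 domains were longer. It held 17 protein-coding genes by midpoint, or 0.553 per 100 kb, a density above that of 44.2% of domains. Cntnap2, a neuronal adhesion gene of 2241.3 kb, alone took up 72.9% of the length. Ezh2 sat 81.7% of the way along, and 7 zinc finger genes with Zfp symbols, singled out after the values were seen, lay in the same domain. Cul1, which encodes the scaffold of a ubiquitin ligase, was the closest neighbour, tail to tail at 4.13 kb. On the side of its start the nearest were the predicted genes Gm40369 at 57.6 kb and Gm40367 at 67.3 kb. Neither flanking interval had a protein-coding gene end within 10 kb, but the start of Cntnap2 was just past that limit, at 10.061 kb from the far one. The interval beyond the 5′ end, chr6:48125001-48150000, held 5 tRNA genes instead.

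Eed (RefSeq gene 13626, chr7:89954654-89980976, minus strand, 26.3 kb long) encodes the subunit that reads H3K27me3. Its domain, chr7:89900001-90425000, was 525 kb long, close to the median of all domains. It held 5 protein-coding genes, Hikeshi, Eed, Picalm, Ccdc83 and Sytl2, or 0.952 per 100 kb. Eed sat 12.9% along from the side of lower coordinates, with its 3′ end 54.7 kb and its start 81.0 kb from the interval there. That interval lies wholly inside Ccdc81. The interval at the far end, chr7:90425001-90450000, held the starts of Ccdc89 and Crebzf. Picalm, a clathrin assembly gene, lies head to head with Eed at 149.2 kb.

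Jarid2 (RefSeq gene 16468, chr13:44730774-44921643, plus strand) encodes an accessory subunit that helps PRC2 bind chromatin. Its domain, chr13:43875001-45000000, was 1125 kb long, longer than 84.9% of domains. It held 2 protein-coding genes, Jarid2 and Dtnbp1, or 0.178 per 100 kb, and 15 other annotated genes. Only 18.9% of domains were sparser. Jarid2 and Dtnbp1 end tail to tail with 0.435 kb between them. Dtnbp1 has its own start in the interval chr13:45000001-45025000, so Jarid2 transcription runs towards that boundary and Dtnbp1 transcription away from it. The Jarid2 start was 269.2 kb from the nearest interval and its 3′ end 78.4 kb. Upstream of the start, 855.8 kb without a protein-coding gene midpoint separated it from the other boundary.

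**Figure D3:**
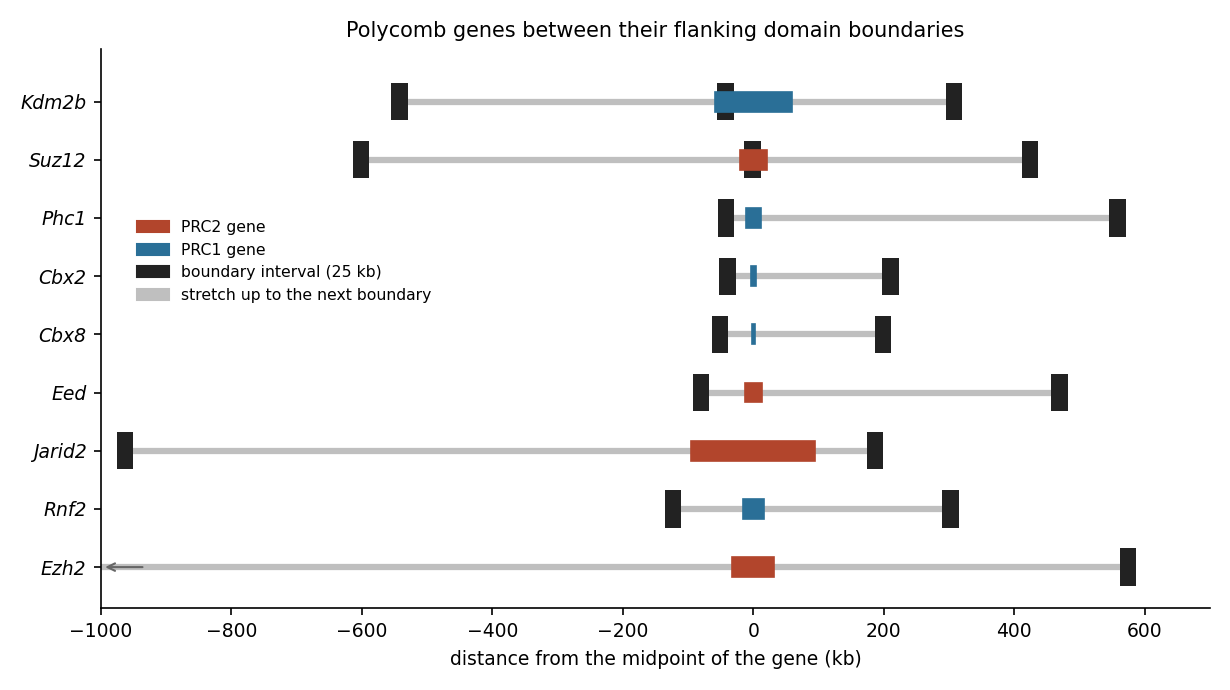
The 9 genes (coloured by complex) between the boundary intervals around them (black), in kb from the midpoint of each gene and ordered by nearest distance; the arrow for Ezh2 marks an interval beyond the axis, 2480.3 kb from the gene. Kdm2b and Suz12 overlie an interval, and Phc1, Cbx2, Cbx8 and Eed sit towards the end of their domain with lower coordinates.

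Among the PRC1 genes, Cbx2 and Cbx8 shared a domain. Both encode chromodomain proteins that bind H3K27me3. Cbx2 (RefSeq gene 12416, chr11:119023019-119031275, 8.26 kb long) and Cbx8 (RefSeq gene 30951, chr11:119036303-119040913, minus strand, 4.61 kb long) were 5.03 kb apart, in a domain of 225 kb, chr11:119000001-119225000. Only 9.16% of domains were shorter. It held 4 protein-coding genes, Tbc1d16 among them, for a density of 1.78 per 100 kb, above that of 82.3% of domains. Its edges held the start of Enpp7 on the Cbx2 side, and the start of Ccdc40 with an end of Tbc1d16 on the other. Cbx2 lay 23.0 kb and Cbx8 36.3 kb from the Enpp7 interval. The domains on either side were longer, at 550 and 1075 kb. Lying side by side, these genes share their surroundings and are not independent examples. Cbx6 and Cbx7, of the same family, also shared a domain, of 375 kb with 9 protein-coding genes on chromosome 15, where they were 81.5 kb apart.

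Phc1 (RefSeq gene 13619, chr6:122317731-122340227, minus strand, 22.5 kb long) encodes a subunit that joins canonical PRC1 complexes to each other through its SAM domain. It lay 5.04% along its domain, chr6:122300001-122875000, with its 3′ end 17.7 kb and its start 40.2 kb from the interval chr6:122275001-122300000. M6pr, a mannose 6-phosphate receptor gene, lay between them, 0.05 kb from the 3′ end of Phc1. The domain was 575 kb long and held 12 protein-coding genes, or 2.09 per 100 kb, above the density of 86.7% of domains. Rimklb and Mfap5 were the nearest on the other side, at 107.1 and 173.4 kb. The domain also held the pluripotency gene Nanog and the germ line and early embryo genes Dppa3 and Gdf3, singled out after their positions were seen. Phc1 and Nanog were 367.3 kb apart with 0 boundaries between them. The edges held Klrg1 on the Phc1 side and Necap1 on the other.

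Rnf2 (RefSeq gene 19821, chr1:151469398-151500991, minus strand, 31.6 kb long) encodes RING1B, the ubiquitin ligase of PRC1. Its domain, chr1:151375001-151775000, was 400 kb long with 4 protein-coding genes, Swt1, Trmt1l, Rnf2 and Niban1, or 1.0 per 100 kb. Rnf2 was 27.5% along it, the most central place of the 8 genes with a domain by midpoint. Its 3′ end was 94.4 kb and its start 126.0 kb from the interval chr1:151350001-151375000, which held ends of Ivns1abp and Swt1. Trmt1l lies tail to tail with Rnf2 at 11.2 kb and Niban1 head to head at 70.4 kb. The interval on the Niban1 side lies wholly inside Edem3.

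The 8 genes with a domain by midpoint lay in 7 distinct domains. Counted per gene, the domains had a median length of 462.5 kb, and counted once each 525 kb, with 4 of 7 above the median of all domains. For comparison, the domains of all 19750 protein-coding genes with a domain had a median of 675 kb when counted per gene (quartiles 425 and 1050 kb), since long and gene-rich domains count more often. The lengths ran from the 225 kb of Cbx2 and Cbx8 to the 3075 kb of Ezh2. Gene density ran from 0.178 per 100 kb for Jarid2 to 2.15 for Kdm2b, beside a median of 0.667 and quartiles of 0.262 and 1.39 over all domains. The domains of the PRC1 genes held 1.0 to 2.15 protein-coding genes per 100 kb and those of Ezh2, Eed and Jarid2 0.178 to 0.952. Suz12, with 1.22 and 2.25 on its 2 sides, departs from this split, and it was seen after the values and not tested. Nor was the split seen among the other genes of the 2 complexes, listed below. Where these had a domain, it held 0.8 to 4.57 per 100 kb for PRC2 and 0.138 to 4.59 for PRC1. The 7 domains held 43 other protein-coding genes.

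**Figure D4:**
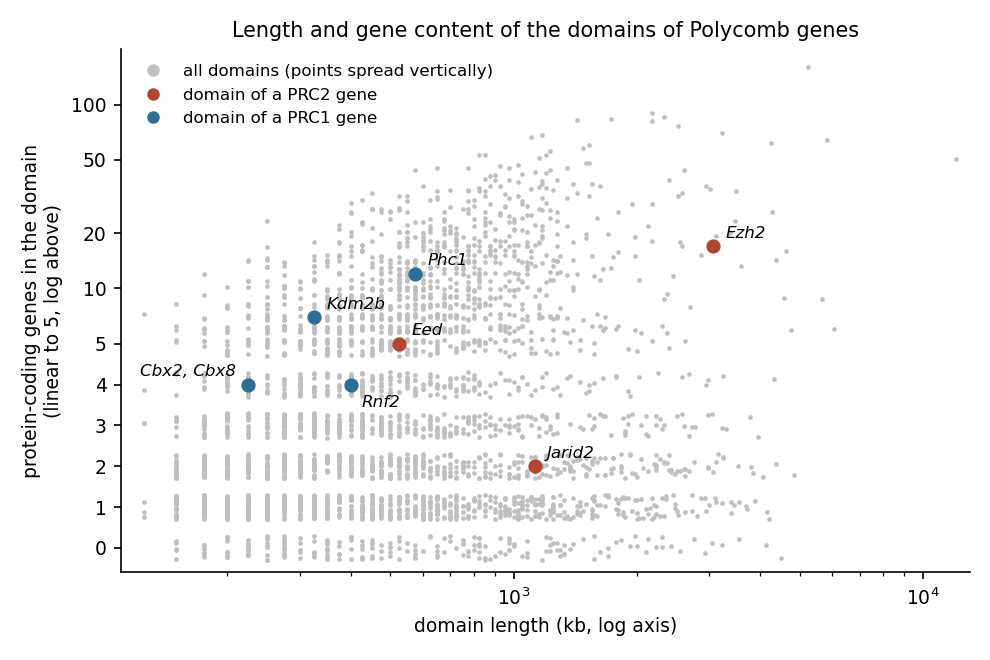
Length (kb, log axis) and number of protein-coding genes (linear to 5, log above) of all 3495 domains (grey, spread vertically to be seen apart) and of the 7 that hold a Polycomb gene by midpoint. Ezh2 is far to the right at 3075 kb with 17 genes, Jarid2 has 2 genes in 1125 kb, and Cbx2 with Cbx8 is at 225 kb with 4.

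The place within the domain was examined after the distances had been seen. The 8 genes lay a median of 14.2% of the domain length from its nearer end, from 5.04% for Phc1 to 27.5% for Rnf2. Over all protein-coding genes the median was 22.2% (quartiles 9.99% and 35.9%). Phc1 and Kdm2b (9.22%) were thus below the lower quartile of all genes, and the rest were between the quartiles. All except Rnf2 were below the median of all genes. The direction of transcription was read in the same way, with the outermost end of the gene as its start. By that rule the 3′ end was nearer a boundary than the start in 6 of the 8 genes with a strand, all but Ezh2 and Suz12. Kdm2b is among the 6 only by its outer start, since its internal starts lie nearer the interval than its 3′ end. The share over protein-coding genes, by the same rule, was 50.5% (8487 of 16818). With 8 genes this count was not tested.

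The 9 genes have 18 distinct intervals around or inside them. A protein-coding gene end lay inside 10 of the 18, beside 49.2% of all 3515 intervals, and within 10 kb of 13, beside 64.3%. The interval inside Suz12 is among the 13 only through the start of Suz12 itself. The one inside Kdm2b is among them through Rnf34 as well as Kdm2b. The genes at these edges differed from gene to gene, and intervals with no protein-coding end within 10 kb were those on both sides of Ezh2, the outer one before Suz12, the one before Jarid2 and the one after Rnf2.

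Windows at listed starts were matched for 8 of the 9 genes, all but Cbx2, and numbered 12. They held 9 to 49 CpG with a median of 26, and 11 of the 12 were above the median of 13 over all 21045 windows of 17274 protein-coding genes (quartiles 4 and 25). The internal Kdm2b windows, which overlap each other, had the most, 49 and 47, more than 98.7% and 98.1% of all windows. Suz12 came next with 41, more than 95.5% of windows. Ezh2 had 31, Rnf2 30, Cbx8 24, the Jarid2 starts 24 and 23, and Eed 17. Phc1 had 9, the only window below the median. The 3 windows of the 12 with the most CpG thus belong to the 2 genes that hold a boundary. The outer Kdm2b windows held 28 and 18, the first just above and the other below the median of the 12. Among the 12, boundary distance and CpG were otherwise not ordered alike, since Ezh2 is the farthest from a boundary and has the next highest count. Of the other genes of the Polycomb system, listed below, Scmh1 had a window with 54 CpG, Bap1, named for this count, one with 50, and Lcor one with 49. These starts were far from a boundary, at 119.7 kb for Scmh1, 223.5 kb for Bap1 and 92.3 kb for Lcor. Scmh1 and Lcor have their 3′ end in an interval, Bap1 has neither end near one, and none of them holds a whole interval. The 14-base CTCF consensus was searched on both strands, CTCF being the protein at which cohesin often halts. With up to 2 mismatches it was found in 1 of the 12 windows, that of Ezh2, and in 16.3% of all windows. These windows are at gene starts and not at the intervals, so the match says nothing of CTCF at the boundaries, whose sequence was not used here.

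**Figure D5:**
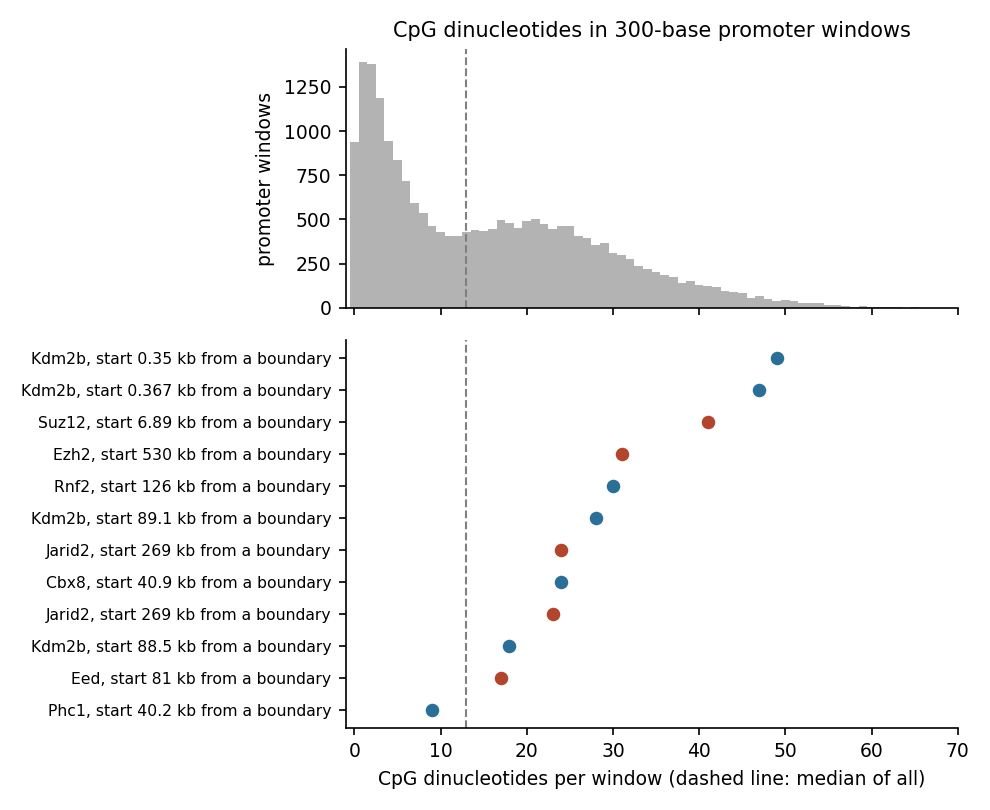
CpG dinucleotides per promoter window of 300 bases, for all 21045 windows (histogram) and for the 12 windows of Polycomb genes (points, labelled with the distance of the start to a boundary). The dashed line is the median of all windows, 13; the internal Kdm2b starts and Suz12 are to the right, at 49, 47 and 41, and Phc1 to the left at 9.

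The other genes of the Polycomb system were taken from a list of 38. Of these, 8 were near a boundary, or 21.1% with an exact 95% interval of 9.55% to 37.3%, close to the 18.3% of all protein-coding genes. All 8 had an end inside the interval, as had 11.7% of all protein-coding genes and none of the 9 genes above. Of 9 other PRC2 genes, 3 were near: Rbbp4, which encodes a histone-binding subunit, Phf1, which encodes a Polycomb-like subunit and has its start in the interval, and Lcor. Of 9 other canonical PRC1 genes, Scmh1 was near. Of 13 genes of variant PRC1, Pcgf6 and Auts2 were. Of 6 genes of enzymes that remove Polycomb marks, with their partners, Kdm6a, which encodes an H3K27 demethylase, and Asxl2, with its start in the interval, were. The last of the 38, Kdm2a, was not. The median distance was 65.8 kb for the other PRC2 genes, 189.5 kb for variant PRC1, 167.4 kb for the opposing enzymes and 107.9 kb for all 38, beside 98.9 kb for all protein-coding genes.

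Paralogues did not share the placing of the 9 genes in every case. Ezh1, which encodes the other H3K27 methyltransferase, was also far from a boundary, at 323.5 kb, but in a domain of 1225 kb with 56 protein-coding genes against the 17 of Ezh2 in 3075 kb. Ring1, the paralogue of Rnf2, was 45.8 kb away and Phc2 54.7 kb, while Phc3 was 180.5 kb away. Kdm2a, the paralogue of Kdm2b, lay 26.3 kb from the first interval of its chromosome, held no interval and had no domain by the definition used. A whole interval inside the gene was found for 2 of the 38, or 5.26%, beside 3.49% of all protein-coding genes. The 38 are longer, with a median of 44.6 kb against 17.4 kb, and among protein-coding genes of at least 25 kb the share was 8.74%. Of the 2, Pcgf5 held a whole interval 11.0 kb from its end, with domains of 325 kb on both sides. Auts2, a gene of 1105.9 kb, held the other. Pcgf5, like Kdm2b, encodes a subunit of a variant PRC1. Pcgf2 and Epop, named for this after their positions were seen, shared a domain of 525 kb with 13 protein-coding genes on chromosome 11, where they were 59.1 kb apart.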

How the data were processed

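The authors prepared Micro-C from RAD21-dTAG mouse cells. Per the submitters' processing notes, reads were processed with BWA 0.7.17 and Juicer 1.22.01 on mm10. The deposited values used are interval coordinates in base pairs (counted from 1 in the text), 1 list for the pooled DMSO-treated ESC libraries. How boundaries were called, and at what threshold, is not stated in the labels, and a list without scores or replicates gives no error on a boundary. The sharpness of each position is limited by the width of 25 kb.

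Gene positions and promoter windows came from RefSeq GRCm38.p6. Genes of scaffolds that carry a chromosome name, 345 with 110 protein-coding, were left out, which kept 49209 genes. The gene table has no strand; strand and starts came from the promoter windows, which cover 17274 protein-coding genes. Distances ran from the nearer gene end to the nearer interval edge, and 0 when the end was inside. A gene belonged to the domain that holds its midpoint. The members and lists were chosen with earlier results of these data known, so no test was made and nothing is taken as independent support. All 9 genes were named, with the protein-coding genes of their domains (all up to 10, otherwise the 2 nearest on each side) and those with an end in a flanking interval, and other Polycomb genes that were near a boundary, held one or are paralogues. An item of these lists is not reported here. The code was checked on simulated data, where it recovered the distance and domain of 2000 of 2000 genes. Exact binomial intervals used scipy 1.17.1. Python 3.11.15, numpy 2.4.6, pandas 2.3.3 and matplotlib 3.10.9 were used.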

Additional observations from a re-analysis of the deposited data

How the results depend on the processing

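The count of Polycomb genes near a boundary rested on the 10 kb window. It was 0 of 9 with no window, 4 with a window of 25 kb, 5 with 50 kb, 1 by gene midpoint and 1 of 8, Suz12, by the outermost start alone, which leaves the internal Kdm2b starts uncounted. For the 38 other Polycomb genes the main count of 8 became 14 with 50 kb, 3 by midpoint, 3 of 29 by start and 5 with boundaries under 200 kb from a neighbour left out. Over all protein-coding genes the 3935 became 2526 with no window (11.7%), 5574 with 25 kb (25.9%) and 7667 with 50 kb (35.6%). It became 2410 by midpoint (11.2%), 2112 of 17274 by start (12.2%) and 3507 with those close boundaries left out (16.3%). Over all annotated genes it was 6386 of 49209 (13.0%). The median length of the domains was 525 kb in place of 462.5 kb with each domain counted once, and 525 kb with domains taken by gene start, an alternative chosen after seeing the data, as were those for intervals inside genes. Leaving out the 360 close boundaries kept 2 Polycomb genes near a boundary and 2 with a whole interval inside, and so did the centre of the interval for the latter. By construction, each of these settings counts other gene ends or domains.

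Contact depth and the spread between the 6 libraries are unknown, so it cannot be said how firmly any single boundary, such as those in Suz12 and Kdm2b, would be called again. No paired analysis was possible because the list pools the libraries.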
